A study of Mus musculus with 31 samples.

Results

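The livers described here were the 16 of the ChREBPβ line, out of 31 livers in the series, and they were divided by their own level of *Dbp*. Livers with a deposited log2 value above 11 for one *Dbp* probe were called Dbp-high (10 mice) and those below 11 Dbp-low (6 mice). All mice were male C57BL6/J, were fasted for 24 hours and then refed for 18 hours with food and 20% glucose in the drinking water. The 16 mice were 8 ChREBPβ-deficient mice, in which gene editing removed the exon specific to the β isoform of *Mlxipl* throughout the body, and 8 of their WT littermates. Mice of 2 edited C57BL6/J lines were made in the study, and the line of each mouse is not given in the sources used here. The other 15 livers came from 7 total ChREBP-KO mice, which lack both isoforms (*Mlxipl*-null), and 8 of their WT littermates, under the same feeding protocol. The mice were kept under a cycle of 12 hours of light and 12 hours of dark. The age of each mouse and the clock time at which its liver was taken are not given in the sources used here. Each liver was hybridized to 1 one-color Agilent array, which reads each gene through short probes and reports how bright each labeled spot is.

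The circadian clock of liver cells is a loop of transcription factors. BMAL1 (encoded by *Arntl*) pairs with CLOCK or NPAS2 and activates genes through short E-box sequences, among them the genes of its own repressors, the PER and CRY proteins, and of the nuclear receptors REV-ERBα and REV-ERBβ (*Nr1d1*, *Nr1d2*). The REV-ERBs in turn repress *Arntl* through elements that ROR receptors can activate. DBP, TEF and HLF, the PAR bZIP factors, are made under the control of E-boxes and activate output genes through D-box sequences, where NFIL3 competes with them. In the mouse, *Dbp* and *Arntl* messages peak at nearly opposite times of day, and many liver genes of metabolism cycle with them.

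The letters upstream of the genes that separated the livers are shown first for 5 named genes in which a search for clock elements found a match. RefSeq start sites (build GRCm38.p6) matched 89 of the 142 genes that separated the Dbp-high from the Dbp-low livers. In the 250 bases upstream of each start, both strands were searched for the E-box CACGTG, the D-box TTATGNAA and the ROR element TAGGTCA. The E-box lay upstream of at least 1 start of 5 of 38 matched genes that were higher in Dbp-high livers (13.2%) and of 5 of 51 that were lower (9.8%), and 6.86% of all 27025 genes had it. The D-box was found for 3 of 38 higher genes (7.89%) and 1 of 51 lower genes (1.96%), against 3.63% of all genes. The ROR element was found for 0 and 1 of these genes, against 2.55% of all genes. These are counts of letters in a window and not of bound sites. The windows are given 5′ to 3′ on the strand of the gene, with the matched letters in capitals. *Per3* (chr4:151044666-151044915, minus strand) holds the D-box 2 times, *Gadd45a* (chr6:67037408-67037657, minus strand) and *Nrg4* (chr9:55283626-55283875, minus strand) hold it 1 time each. Both *Tef* starts (chr15:81802423-81802672 and chr15:81811164-81811413, plus strand) and *Cry1* (chr10:85185055-85185304, minus strand) hold the E-box.
Per3: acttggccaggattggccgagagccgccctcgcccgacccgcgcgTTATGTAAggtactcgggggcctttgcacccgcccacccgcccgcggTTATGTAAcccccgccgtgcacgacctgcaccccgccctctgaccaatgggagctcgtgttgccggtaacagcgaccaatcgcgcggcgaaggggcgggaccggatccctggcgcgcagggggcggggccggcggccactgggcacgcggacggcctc
Gadd45a: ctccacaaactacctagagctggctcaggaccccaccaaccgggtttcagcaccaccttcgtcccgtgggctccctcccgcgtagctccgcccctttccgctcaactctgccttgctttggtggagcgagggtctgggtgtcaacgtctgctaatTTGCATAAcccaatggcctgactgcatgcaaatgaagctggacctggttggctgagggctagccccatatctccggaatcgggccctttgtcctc
Nrg4: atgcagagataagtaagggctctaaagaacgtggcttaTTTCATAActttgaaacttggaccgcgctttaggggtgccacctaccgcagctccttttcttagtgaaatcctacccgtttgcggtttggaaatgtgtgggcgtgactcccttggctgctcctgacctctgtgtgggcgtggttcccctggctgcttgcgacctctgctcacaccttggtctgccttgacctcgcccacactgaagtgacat
Tef, upstream start: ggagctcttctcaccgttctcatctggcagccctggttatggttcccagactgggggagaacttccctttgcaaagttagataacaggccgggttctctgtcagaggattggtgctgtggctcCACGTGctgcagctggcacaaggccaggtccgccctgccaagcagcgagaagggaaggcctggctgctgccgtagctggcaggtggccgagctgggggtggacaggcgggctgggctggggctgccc
Tef, downstream start: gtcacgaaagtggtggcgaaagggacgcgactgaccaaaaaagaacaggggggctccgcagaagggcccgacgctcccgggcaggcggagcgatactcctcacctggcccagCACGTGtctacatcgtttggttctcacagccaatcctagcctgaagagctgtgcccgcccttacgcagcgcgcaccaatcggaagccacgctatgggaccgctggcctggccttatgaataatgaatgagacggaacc
Cry1: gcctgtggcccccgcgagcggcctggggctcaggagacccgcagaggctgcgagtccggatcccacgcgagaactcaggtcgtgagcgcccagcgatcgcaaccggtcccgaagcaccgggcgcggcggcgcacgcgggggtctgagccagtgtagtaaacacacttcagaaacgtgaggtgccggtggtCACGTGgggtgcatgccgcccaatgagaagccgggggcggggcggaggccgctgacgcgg
The windows of *Dbp* and of both *Arntl* starts held none of these letters. The same held for other called clock and output genes, among them *Upp2*, *Nr1d1*, *Nr1d2*, *Cry2* and *Npas2*.

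*Dbp* formed a wide and empty gap between the 2 sets of livers. The deposited log2 values of the Dbp-low livers ran from 8.21 to 10.05 with a median of 9.0, and those of the Dbp-high livers from 11.82 to 15.28 with a median of 14.21. The liver just inside the border was that of ChREBPβ-deficient mouse 2, at 11.82, and the one just outside was that of WT mouse 7, at 10.05. No value fell in the 1.78 log2 units between them, and a border set at the widest gap gave the same 16 assignments. From the lowest to the highest liver *Dbp* spanned 134-fold. These values made the groups, so they carry no test, and the same holds for every difference between Dbp-high and Dbp-low livers given here.

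**Figure D1:**
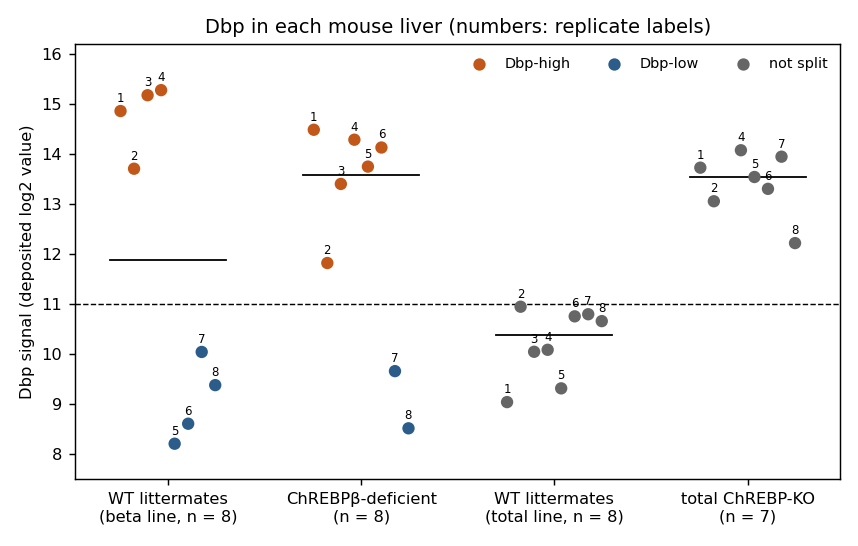
Deposited log2 value of *Dbp* in each of the 31 livers (points, with the replicate number of the label) by group, with the median of each group as a short line and the border of 11 as a dashed line. Both genotypes of the ChREBPβ line hold livers on both sides of the border, whereas in the other line all 7 total ChREBP-KO livers lie above 11 and 0 of 8 WT livers do.

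Both genotypes of the ChREBPβ line were found on both sides. The Dbp-high livers were those of ChREBPβ-deficient mice 1 to 6 and WT mice 1 to 4, and the Dbp-low livers were those of ChREBPβ-deficient mice 7 and 8 and WT mice 5 to 8. Genotype and Dbp state were not detectably related (6 of 8 against 4 of 8 mice, two-sided Fisher's exact test, p = 0.608, 2 tests, Benjamini-Hochberg adjusted p = 0.608). The replicate numbers of the labels, whose meaning is not given, ran with the state. All 8 mice numbered 1 to 4 were Dbp-high, and 6 of the 8 mice numbered 5 to 8 were Dbp-low. This was noticed after the values were seen and was not tested. The arrays were scanned on 2 days, with 6 Dbp-high and 1 Dbp-low array on the first and 4 and 5 on the second (Fisher's exact test, p = 0.145, adjusted p = 0.29). Of the 12 slides that held these arrays, 2 held both states. Spots that passed the quality weights numbered 35879 to 38612 on Dbp-high and 36325 to 37653 on Dbp-low arrays, and the median local background was 16 to 20 in both.

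A gene was counted as following the Dbp state when at least 1 of its probes put every Dbp-high liver on one side of every Dbp-low liver and differed by at least 0.5 on the log2 scale after adjustment for genotype. Of 36059 probes, 76 were higher in Dbp-high livers by this rule (0.211%) and 93 lower (0.258%), or 169 together (0.469%), which made 60 higher (0.25%) and 82 lower (0.342%) of 23968 genes and 0 in both. A difference of at least 2-fold was reached by 29 higher and 29 lower probes. Without a size limit 452 probes separated the livers (1.25%), 194 upward and 258 downward. The median difference over all probes was −0.0039 on the log2 scale. Leaving out WT mouse 7 raised the higher count to 120 and leaving out ChREBPβ-deficient mouse 2 raised the lower count to 150. Since the livers are whole tissue, fewer cells of a type and less RNA per cell cannot be told apart.

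Clock activators were lower in Dbp-high livers. All probes of *Arntl*, the partner gene in the opposite phase to *Dbp*, were lower. At one *Arntl* probe (chr7:120439030-120439089, mm9) the Dbp-high livers ran from 4.86 to 7.21 with a median of 5.79, and the Dbp-low livers from 7.36 to 7.73 with a median of 7.60. The Dbp-high livers were thus widely spread and the Dbp-low livers tightly grouped, with a genotype-adjusted difference of −1.92 ± 0.26 (SE, n = 10 and 6). A second probe separated the livers at −1.69 ± 0.26. The brightest *Arntl* probe differed by −2.08 ± 0.39 but did not separate them, because ChREBPβ-deficient mouse 2 of the Dbp-high livers stood at 9.87, within the Dbp-low range of 9.66 to 10.06. *Npas2*, the stand-in for CLOCK, ran from 4.54 to 5.24 in Dbp-high and from 5.38 to 6.16 in Dbp-low livers and differed by −1.03 ± 0.11, with its probe well above background on 13 of 16 arrays. *Clock* itself was lower at all 4 probes, from −0.88 to −0.17, and separated the livers at none.

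The repressors of the loop split. *Per3* showed the widest difference after *Dbp* among the core clock genes. Its brighter probe ran from 7.94 to 10.17 (median 9.37) in Dbp-high and from 6.42 to 7.41 (median 6.61) in Dbp-low livers. The Dbp-high livers lay above all others at both *Per3* probes, by 2.67 ± 0.26 and 2.76 ± 0.31, which is 6.34-fold and 6.79-fold. *Cry2* was 0.69 to 0.73 higher at all 3 probes, each of which separated the livers. *Cry1* went the other way, with Dbp-high livers between 5.22 and 6.08 and Dbp-low livers between 6.12 and 6.84 at the brighter of 2 probes, a difference of −0.98 ± 0.13. *Per1* and *Per2* overlapped, with differences of 0.09 ± 0.27 and −0.08 ± 0.19 at their brightest probes. *Ciart*, a repressor that binds BMAL1, differed by 1.74 ± 0.33 without separating the livers. *Bhlhe40* differed by 0.38 ± 0.23, and *Bhlhe41* did not pass the filter on dim probes.

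**Figure D2:**
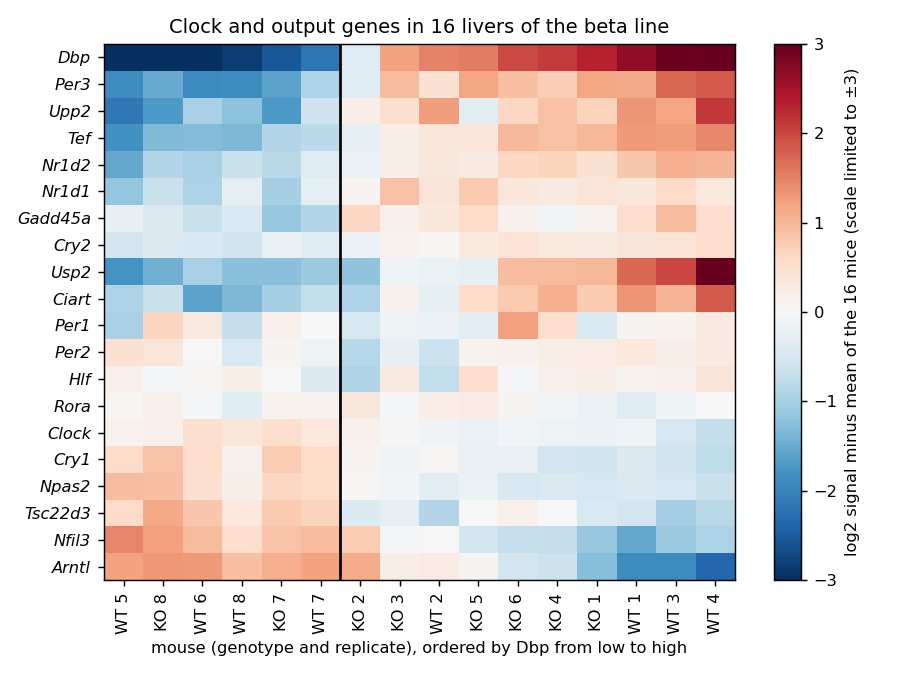
Log2 signal of 20 clock and output genes (brightest probe of each, from top to bottom) in the 16 livers of the ChREBPβ line (from left to right), ordered by *Dbp* from low to high, each gene relative to its mean over the 16 mice. The black line marks the border, with 6 Dbp-low livers to its left. *Per3*, *Upp2* and *Tef* run from blue to red with *Dbp*, *Arntl* and *Nfil3* run the other way, and ChREBPβ-deficient mouse 2, just right of the border, carries *Arntl* and *Usp2* values of the Dbp-low livers.

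Both REV-ERB genes were higher in Dbp-high livers and *Rora*, the gene of an opposing ROR receptor, was not separated. *Nr1d1* ran from 9.84 to 10.64 in Dbp-high and from 8.59 to 9.50 in Dbp-low livers, a difference of 1.16 ± 0.15. All 3 *Nr1d2* probes separated the livers, by 1.41 to 1.48. *Rora* differed by −0.04 ± 0.10 at its brightest probe and overlapped. *Rorb* did not pass the filter.

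Among the PAR bZIP factors, *Tef* followed *Dbp* and *Hlf* did not. The second *Dbp* probe, which the border did not use but which reads the same message, gave 5.03 ± 0.41 beside 5.21 ± 0.42 at the first, or 32.6-fold and 37.0-fold. All 4 *Tef* probes separated the livers, by 1.04 to 2.07, and at the brightest the Dbp-high livers ran from 12.95 to 14.68 and the Dbp-low livers from 11.44 to 12.46. *Hlf* overlapped, with a difference of 0.02 ± 0.19. *Nfil3*, the repressor of the same D-boxes, differed by −1.69 ± 0.27 and −1.63 ± 0.27 but did not separate the livers, with Dbp-high values up to 11.97 against Dbp-low values from 11.74 at the brighter probe. None of 8 genes for clock protein turnover and kinases was called. The deubiquitinase gene *Usp2* came nearest, at 2.34 ± 0.44, and the ranges overlapped in ChREBPβ-deficient mouse 2.

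**Figure D3:**
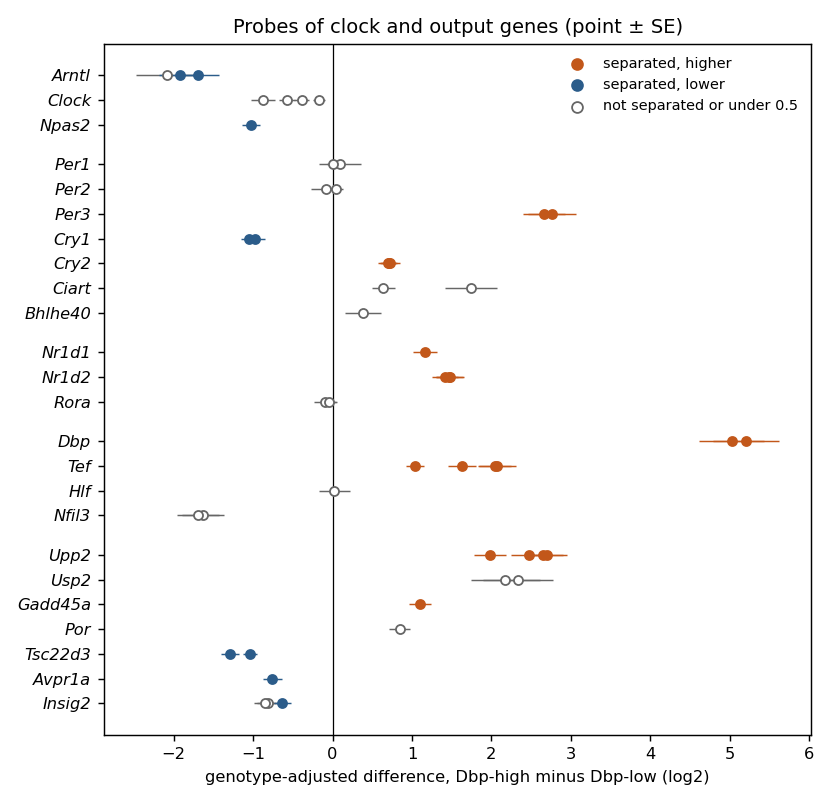
Genotype-adjusted log2 difference, Dbp-high minus Dbp-low (10 and 6 livers), for the probes of named clock and output genes, with the standard error as a bar. Filled points are probes that separated all livers with a difference of at least 0.5, and open points did not. *Dbp* lies near 5, *Per3*, *Upp2* and *Tef* between 1 and 3, and *Arntl*, *Cry1*, *Npas2* and *Tsc22d3* below 0.

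Of 30 genes listed as rhythmic outputs of the liver, 3 were called higher and 3 lower, where 0.25% and 0.342% of all genes were, with a median difference of 0.21 over the brightest probes. The list was chosen with earlier results of these data known, so these counts describe its members and carry no test. *Upp2*, a uridine-degrading enzyme of the liver, had 4 of 4 probes separated by 1.98 to 2.70. At the brightest, the Dbp-high livers ran from 10.32 to 12.77 and the Dbp-low livers from 8.51 to 10.02. *Gadd45a*, a growth arrest and DNA damage gene, was higher by 1.1 ± 0.14. *Wee1*, a kinase that holds back mitosis, was called at a dim probe that was well above background on 11 of 16 arrays (0.80 ± 0.12), and its brighter probe differed by 1.63 ± 0.29 without separating the livers. *Tsc22d3*, also known as the glucocorticoid-induced leucine zipper, was lower at both probes, with differences of −1.29 ± 0.11 and −1.04 ± 0.09. *Avpr1a*, a vasopressin receptor gene, differed by −0.76 ± 0.12. *Insig2*, which holds the SREBP complex in the endoplasmic reticulum, differed by −0.85 to −0.63 at 3 probes, 1 of which separated the livers. *Por*, the electron donor of the cytochromes P450, differed by 0.84 ± 0.13 and overlapped.

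Lists of genes for feeding, stress hormones and heat shock were read against the same shares of all genes, 0.25% higher and 0.342% lower. These lists were also chosen with earlier results of these data known. None of 18 fasting genes, 18 refeeding and lipogenic genes, 20 cholesterol genes and 12 bile acid genes was called, with median differences of 0.01, −0.16, −0.04 and −0.08. Single members of these lists differed without separating the livers, among them *Igfbp1* at −1.76 ± 0.56, *Pdk4* at −1.36 ± 0.39 and *Pnpla3* at −1.14 ± 0.32. Members also went the other way. The largest upward differences at the brightest probes were 0.714 for fasting, 0.0474 for refeeding and lipogenic, 0.209 for cholesterol and 1.15 for bile acid genes. *Fasn*, the fatty acid synthase gene, differed by −0.40 ± 0.17, with Dbp-high livers from 16.93 to 18.09 and Dbp-low livers from 17.23 to 18.23. *Tsc22d3* was the 1 called member of 12 glucocorticoid-responsive genes. *Cdkn1a* differed more, by −2.42 ± 0.44, and overlapped. Of 13 heat shock and cold-inducible genes, the co-chaperone gene *Dnajb1* was called, from 11.18 to 11.69 in Dbp-high and from 11.77 to 12.51 in Dbp-low livers. None of the markers of hepatocytes (8 genes), exocrine pancreas (6 of 10 measured), adipocytes (5 of 6), red blood cells (4 of 7), immune cells (9) or endothelial, stellate and duct cells (8) was called. The summed linear signal of the hepatocyte markers was 1690000 to 1810000 in Dbp-high and 1560000 to 1730000 in Dbp-low livers, and those of red blood cells were 58800 to 98900 and 46400 to 85300, of adipocytes 724 to 6780 and 713 to 4450, and of immune cells 16900 to 26500 and 16400 to 24400. Those of exocrine pancreas were 3010 to 3920 and 2520 to 3470, and those of endothelial, stellate and duct cells 22500 to 26900 and 19500 to 27400. All of these ranges overlapped. The brightest probe of the hepatocyte marker *Alb* read 18.956 in every liver after quantile normalization. That part of the hepatocyte sum could therefore not differ between livers. *Adipoq*, *Cpa1*, *Cpb1*, *Prss2* and *Pnlip* did not pass the filter.

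Outside the lists, the largest differences were of the size seen in the clock genes. Described here are genes from the 15 in each direction with the widest differences among probes well above background on all 16 arrays. The higher genes ran from 2.23 down to 0.77. *Nrg4*, which encodes a secreted ligand of ErbB receptors, ran from 8.0 to 9.37 in Dbp-high and from 6.65 to 7.68 in Dbp-low livers at 1 of its 4 probes (1.64 ± 0.19), and the other 3 differed by 0.43 to 0.90. *Gstt2*, a glutathione transferase, was higher by 1.40 ± 0.16 at 1 probe and by 0.43 at the other. *Ppargc1b*, a coactivator of mitochondrial and lipid genes, was higher at both probes, by 1.0 ± 0.13 and 1.01 ± 0.13. The vitamin transporter gene *Slc5a6* was higher by 1.02 ± 0.18, the nesprin gene *Syne3* by 1.01 ± 0.10 and the cytochrome P450 gene *Cyp2g1* by 1.11 ± 0.16. *Narf*, *Gdap10*, *Ank3*, *Tmem86a*, *Ubd*, *Rnaseh2b* and *Tns2* were higher by 0.77 to 0.90 at the called probe. Other probes of *Ank3*, *Tns2* and *Rnaseh2b* differed by as little as −0.07, 0.12 and 0.23. Under the alternative choices of processing and livers, the *Ubd* difference fell as low as 0.19. The largest of all belonged to a probe annotated to *Dnajb11*, at 2.23 ± 0.23, yet the other 2 probes of that gene differed by −0.20 and −0.14. *Fads2*, the Δ6 desaturase gene, was called at 1 of 5 probes (1.18 ± 0.19), and the other 4 differed by 0.34 to 0.75.

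The lower genes ran from −2.07 to −1.01. *Ppard*, the gene of the fatty acid-sensing nuclear receptor PPARδ, had 1 probe (chr17:28438298-28438357, mm9), at which the Dbp-high livers ran from 8.26 to 9.86 and the Dbp-low livers from 10.28 to 11.41, a difference of −2.07 ± 0.23 or 4.21-fold. *Nedd4l*, a ubiquitin ligase gene, differed by −1.55 ± 0.25 at 1 probe and by −0.90 to −0.78 at the other 3. *Acnat2*, which conjugates acyl groups to amino acids, was lower at both probes, by −1.38 and −1.23. *Grk5*, *Asap2*, *Fam222a*, *Srgap3*, *Dnmt3b*, *Cpeb2* and *Pdgfc* differed by −1.23 to −1.01 at the called probe. Other probes of *Asap2*, *Dnmt3b* and *Cpeb2* were lower by less, as near to 0 as −0.35, −0.79 and −0.77. For *Sfpq*, *Plg* and *Hyou1* the probes disagreed. The called probes differed by −1.30, −1.29 and −1.21, whereas other probes of the same genes were as near to 0 as −0.04, −0.03 and −0.26.

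The 142 genes also ranked the livers within each side of the border. For each gene, 0 was set at the mean of the Dbp-low and 1 at the mean of the Dbp-high livers, and the median over the genes was taken for each mouse. Dbp-low livers ran from −0.158 (WT mouse 5, the lowest in *Dbp*) to 0.131 (WT mouse 7, the highest of the 6). Dbp-high livers ran from 0.706 (ChREBPβ-deficient mouse 2, the lowest in *Dbp*) to 1.32 (WT mouse 4, the highest). Mouse 2 was the Dbp-high liver nearest to the Dbp-low livers for 56 of the 142 genes, more than any other mouse. The genes were chosen on these livers, so the positions describe them only.

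**Figure D4:**
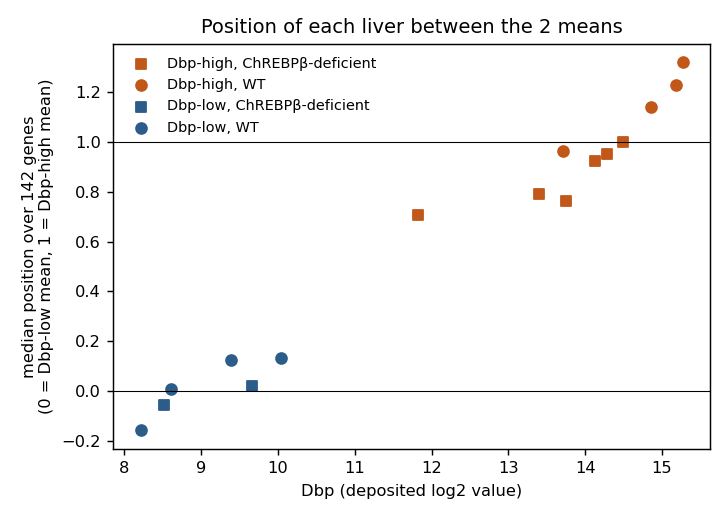
Median position over 142 genes (vertical axis, 0 at the Dbp-low mean and 1 at the Dbp-high mean) against the deposited log2 value of *Dbp* in the 16 livers, with ChREBPβ-deficient mice as squares and WT mice as circles. The Dbp-low livers lie between −0.158 and 0.131 and the Dbp-high livers between 0.706 and 1.32.

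Differences within genotypes, within 1 scan day and within the mice numbered 5 to 8 describe sizes only, because the genes were chosen for separating all 16 livers and their direction could not differ in a subset. Among ChREBPβ-deficient mice (6 Dbp-high, 2 Dbp-low), *Per3* differed by 2.31, *Tef* by 1.62 and *Upp2* by 2.15 at the brightest probes and *Arntl* by −1.52 at its first called probe, and among WT mice (4 and 4) by 2.93, 2.40, 2.72 and −2.22. On the second scan day (4 Dbp-high and 5 Dbp-low arrays) the differences were 2.67 for *Per3*, 2.09 for *Tef*, 2.13 for *Upp2* and −2.07 for *Arntl*. The first scan day held 1 Dbp-low array and gave no value. Among the mice numbered 5 to 8 (2 Dbp-high, both ChREBPβ-deficient, and 6 Dbp-low) the differences were 2.60, 1.78, 1.88 and −1.58. The mice numbered 1 to 4 were all Dbp-high and gave no value. The choices of scan day 2 and of these numbers were made after the data were seen.

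The total ChREBP-KO line gave 15 livers that the border had not used, and these carry tests. WT mice 7 and 8 of this line read nearly alike at genes that varied between mice. *Angptl4* stood at 13.66 and 13.68 in them, with all WT livers of the line from 12.25 to 13.95. *Ccrn4l* stood at 11.20 and 11.24, with these WT livers from 9.10 to 11.24. The tests of this line, slopes included, counted them as separate mice, and whether their arrays are independent was not tested. *Dbp* ran from 12.22 to 14.08 in total ChREBP-KO mice and from 9.04 to 10.95 in their WT littermates, so all 7 knockout livers would be Dbp-high and all 8 WT livers Dbp-low. The difference of 3.19 ± 0.99 passed the test (limma on 31 arrays with 4 group means, adjusted p = 0.0143). In these mice genotype and Dbp level cannot be told apart, and the knockout changed many genes, with 5229 probes higher (14.5% of all) and 5248 lower (14.6%) in knockout mice. Of the 76 probes higher in Dbp-high livers, 31 were higher (40.8%) and 5 lower (6.58%) in total ChREBP-KO mice, with a median difference of 0.42. Of the 93 lower probes, 38 were lower (40.9%) and 12 higher (12.9%), with a median of −0.30. In limma's test *Upp2* rose by 2.08 (adjusted p = 0.00198), *Nr1d1* by 1.21 (adjusted p = 0.000319) and *Tef* by 1.21 (adjusted p = 0.0262) in knockout mice, and *Arntl* fell, with a difference of −1.38 (adjusted p = 0.0251), as did *Npas2* at −0.83 (adjusted p = 0.00289) and *Ppard* at −1.88 (adjusted p = 0.000865). *Per3* rose by 1.42 at its brighter probe (limma, adjusted p = 0.0402), a call that was lost in 10 of 15 fits that left out 1 mouse of this line (adjusted p from 0.0369 to 0.0766) and held when the 15 arrays were fitted alone (SE 0.206, limma adjusted p = 9.71e-05). Some followers did not follow here. *Dnajb1* and the called probe of *Hyou1*, both lower in Dbp-high livers, rose by 0.72 and 1.26 in knockout mice (limma, adjusted p = 0.00796 and 0.00186), and *Gadd45a*, the called probe of *Nrg4* and the brighter probe of *Tsc22d3* differed by −0.41, −0.20 and −0.18 without passing the test. Other *Nrg4* probes fell, at −0.73 each (limma, adjusted p = 0.00408 and 0.006), as did 1 of the 2 *Ppargc1b* probes, at −0.60 (adjusted p = 0.0311). *Per1*, which overlapped in the ChREBPβ line, rose by 1.5 at its brighter probe (limma, adjusted p = 0.000157). When the 15 arrays of the line were fitted alone, the difference in *Dbp* was the same with an SE of 0.313 in place of 0.99 (limma, adjusted p = 1.73e-06). In that fit the limma adjusted p was 9.67e-06 for *Tef* and 3.72e-07 for *Arntl*. The fit of 31 arrays shares its variance with the ChREBPβ line, where the followers were chosen for differing between mice. Its SEs for followers are therefore widened, and its counts of followers that passed can be too low.

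Within the groups of the total ChREBP-KO line, *Dbp* varied less than over the ChREBPβ line. A regression of each probe on *Dbp* with genotype as a term tested whether the small differences between mice of 1 group ran with the same genes. Of 36057 probes, 2 passed (0.00555%), and both read *Tef*. Its slopes were 0.33 ± 0.04 and 0.40 ± 0.05 log2 units per log2 unit of *Dbp* (limma, adjusted p = 0.00844 and 0.0113). Both calls were lost without WT mouse 1 or without WT mouse 5 of this line. At the first of them the knockout livers ran from 10.54 to 11.18 and the WT livers from 9.23 to 9.92, and within both groups livers high in *Dbp* tended to be high in *Tef*. No probe with a negative slope passed. The nearest was an *Arntl* probe at −0.33 ± 0.06 (limma, adjusted p = 0.624), from 5.58 to 6.47 in knockout and from 6.77 to 7.5 in WT livers. At an unadjusted p under 0.05, 1340 probes had a slope (3.72%). Among them were 22 of the 74 tested probes that were higher in Dbp-high livers and 10 of the 93 that were lower, all with the direction of the ChREBPβ line. The probes of *Per3* (0.36 and 0.44, limma unadjusted p = 0.00204 and 0.00271, adjusted p = 1) were of this kind. Pancreas genes had positive slopes too, such as *Cel* at 0.755 and *Amy2a5* at 1.14 (limma unadjusted p = 0.0146 and 0.0434). *Cela2a* and another *Amy2a5* probe had 0.76 and 0.04 (limma unadjusted p = 0.14 and 0.703). The first *Amy2a5* probe read 13.62, 11.84 and 12.21 in WT mice 2, 7 and 8, and 7.99 to 8.74 in the line's other livers. These WT mice stood at 10.95, 10.80 and 10.66 in *Dbp*. How far pancreatic RNA carried any slope was not tested.

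**Figure D5:**
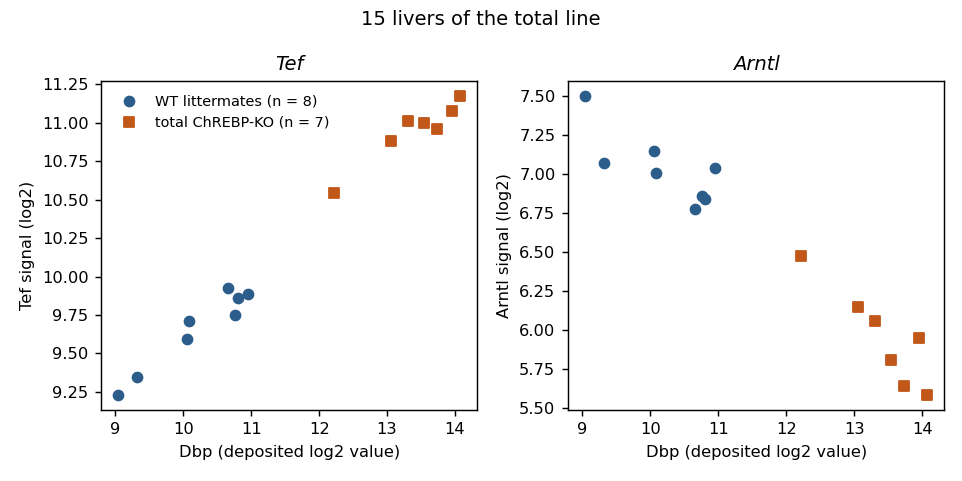
Log2 signal of *Tef* (left) and *Arntl* (right) against the deposited log2 value of *Dbp* in the 15 livers of the total ChREBP-KO line, 7 knockout mice as squares and 8 WT littermates as circles. *Tef* is higher and *Arntl* lower in the knockout livers, which all lie above 12 in *Dbp*, and within each group *Tef* climbs with *Dbp*.

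With state as a term, 0 of 36059 probes passed between ChREBPβ-deficient and WT mice (limma, lowest adjusted p = 0.173), and 3232 had an unadjusted p under 0.05 (8.96%). Without the term, 0 passed as well (lowest adjusted p = 0.0664), and 2126 had an unadjusted p under 0.05 (5.9%). *Mlxipl*, the targeted gene, differed between ChREBPβ-deficient and WT mice by −0.42 ± 0.07 at its brightest probe with the state (limma, adjusted p = 0.193) and by −0.45 ± 0.08 without it (limma, adjusted p = 0.218), values that did not pass. Its other probes differed by −0.35 ± 0.12 and −0.01 ± 0.05 with the state (limma, adjusted p = 0.452 and 0.969). In total ChREBP-KO mice the brightest probe fell, with a difference of −1.16 (limma, adjusted p = 8.05e-13). Whether these probes lie inside or outside the deleted exon was not tested, so they are no full check of the labels. For *Tsc22d3* the SE of the genotype difference was 0.09 with the state and 0.25 without it at one probe, where ChREBPβ-deficient mice stood 0.50 and 0.24 above WT littermates (limma, adjusted p = 0.193 and 0.947). The probes of this gene separate the states, so a smaller SE with the state term was built in.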

How the data were processed

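Liver RNA of 31 mice was measured on 1 Agilent one-color array each. The files deposited by the authors were scanner outputs (Feature Extraction 10.10.1.1) with an unnormalized intensity per spot and other columns that flag spot quality. A matrix of normalized log2 values was also deposited, which the methods describe as filtered, quantile normalized medians of replicated probes. Probe positions are on mm9 and genes carry the names the array gave them. Promoter sequences came from RefSeq (GRCm38.p6).

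The log2 median signals were taken without background subtraction. Spots with weight 1 on at least 26 arrays, or 6 arrays of 1 group, were kept and quantile normalized, which left 36059 probes. The values differed from the deposited ones by at most 0.137. The deposited log2 value of *Dbp* divided the livers. Groups came from the sample labels. The number of arrays limits the precision.

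Linear models were fitted in R 4.3.3 with limma 3.58.1 with Dbp state and genotype as terms, with no test of state, since the same arrays defined it. Total ChREBP-KO mice were tested in the fit of 31 arrays, the slope in 15 arrays and genotype in 16, with Benjamini-Hochberg adjustment over all probes and a threshold of 0.05. The methods state that several litters were used, and the litter of each mouse is not given in the sources used here. The named genes were the members of 18 gene lists, the 15 largest differences in each direction among called probes well above background on all 16 arrays (1 probe per gene, clone names left out), and genes called for genotype or slope. Some of these genes are not reported here. The members and lists were chosen with earlier results of these data known. Programs were tested on simulated data. Alternatives were other scalings, filters, batch and replicate blocks, the deposited values and leaving out each array. Figures were drawn with matplotlib 3.10.9.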

Additional observations from a re-analysis of the deposited data

Results flagged for a closer look

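Among 63 named or clock genes, in 2 sets of livers each, 3 of 126 sets held a liver far from the others of its set by Dixon's gap ratio, where about 1 in 20 is found by chance. Both sets are defined by *Dbp* and not by the labels. The liver of ChREBPβ-deficient mouse 2, the Dbp-high liver nearest to the border, had an *Ubd* value of 9.94, with the next Dbp-high liver at 8.06. *Ubd* encodes a ubiquitin-like modifier induced by inflammatory cytokines. The liver of WT mouse 2 had an *Ank3* value of 11.78, with the next Dbp-high liver at 11.37. The liver of WT mouse 8 had a *Dnajb1* value of 11.77, the lowest of the Dbp-low livers, with the next at 12.28.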

How the results depend on the processing

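Alternatives were run for the called probes of the named genes, and none of these changed direction, which leaving out livers could not do since the probes separate all 16. Named genes that were not called, such as *Per1* or *Nfil3*, were not run. The counts of 76 higher and 93 lower probes stayed within 1.5 times under other scalings, background corrections, the deposited values, no filter, scan day and slide as blocks, no genotype term and a border at the widest *Dbp* gap. Requiring weight 1 on all arrays gave 42 and 54. Fewer livers separate more easily, and counts were 251 and 229 in ChREBPβ-deficient mice alone, 358 and 456 in WT mice alone, 228 and 191 in replicates 5 to 8, 197 and 230 on scan day 2, and 205 and 210 without the 3 mice nearest to the border. Leaving out 1 liver gave 75 to 120 higher and 85 to 150 lower probes, the upper ends without WT mouse 7 and without ChREBPβ-deficient mouse 2. A border at the widest *Arntl* gap moved that mouse to the low side and gave 55 and 85 probes, of which 29 and 31 were among the 76 and 93. In total ChREBP-KO mice, 5229 and 5248 probes became 3519 and 3406 with weight 1 on all arrays and, leaving out 1 array, 4563 to 5268 and 4760 to 5309. There *Tmem86a* (probe A_51_P314285, −0.04) ran from −0.2173 to 0.0586 when 1 array was left out, above 0 without total ChREBP-KO mouse 6 or 8, and *Acnat2* (probe A_55_P2165091, −0.26) from −0.5019 to 0.03422, above 0 without mouse 7. The 2 *Tef* slopes gave 1 call with the processed signal, and leaving out 1 liver gave 0 to 2 positive and 0 to 1 negative calls, with no *Tef* call without WT mouse 1 or WT mouse 5. With *Arntl* in place of *Dbp* no slope passed (0 calls), and the *Tef* slopes were −0.51, −0.74, −0.89 and −0.79, opposite by the choice of regressor. Genotype with state gave 1 lower probe with the processed signal and 0 to 1 when 1 liver was left out (0 in each case for higher probes), both times an unnamed position on chromosome 4. Deviations of same-numbered mice were correlated at −0.156 to 0.533 in the ChREBPβ line (6 of 8 over 0.1). In the other line the correlations were −0.215 to 0.241 (2 of 7 over 0.1). The meaning of the numbers is not given, and whether they pair the mice was not tested. With the replicate block, 88 and 103 probes followed the state, 3416 and 3766 passed in total ChREBP-KO mice and 0 for ChREBPβ deficiency.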
